A study of Mus musculus with 5 samples.

Results

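*Eomes*, *Tbx21*, *Prdm1*, *Zeb2*, *Hopx*, *Zfp683* and *Bhlhe40* are 7 genes for transcription factors that drive effector, cytotoxic and memory states of T cells and NK cells. They were taken by symbol from the 55487 genes counted in thymic CD4 SP cells of 3 wild type (WT) mice and 2 *Tet2/3* DKO (DKO) mice. All 7 had a row in the counts, and 6 held enough reads to be tested. CD4 SP cells are mature thymocytes that kept CD4 and lost CD8. All mice were C57BL/6J, 21 to 30 days old, and each gave 1 library. The *Tet2/3* DKO mice were Tet2-/- Tet3flx/flx CD4cre. *Tet2* is thus missing in every cell of the animal, whereas Cre driven by the *Cd4* promoter removes *Tet3* only from the thymocyte stage that first turns this promoter on. The controls are labelled wild type. Live CD24 low CD4+ TCRb+ CD8- cells that did not bind the CD1d tetramer were sorted, so that iNKT cells were gated out.

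TET proteins oxidise 5-methylcytosine, mostly where C is followed by G (CpG), as a step toward its loss from DNA. EOMES and T-BET (*Tbx21*) are T-box factors that bind related DNA sites, and they are known for turning on interferon, chemokine receptor, perforin and granzyme genes in CD8 T cells, NK cells and Th1 cells. BLIMP-1 (*Prdm1*) and HOBIT (*Zfp683*) are related zinc finger repressors of tissue-resident and effector lymphocytes. ZEB2 acts beside T-BET in terminal effector cells, HOPX is a small homeodomain protein without DNA binding of its own that is found in Th1 and effector cells, and BHLHE40 is a basic helix-loop-helix factor that helps T cells make inflammatory cytokines. In CD4 cells of the thymus most of these genes are known to be low.

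The DNA just upstream of a start site of 3 of these genes is shown because CpG is where TET proteins act. The first 2 encode the T-box pair. The third, *Prdm1*, is shown beside them as a gene whose levels overlapped between the genotypes. Each is the 250 bases before the RefSeq start site on the GRCm38.p6 assembly, on the strand of the gene, with each CpG in capitals. *Eomes* is read from chr9:118477939-118478188 on the plus strand, *Tbx21* from chr11:97115332-97115581 on the minus strand and *Prdm1* from chr10:44458749-44458998 on the minus strand. The *Prdm1* window lies inside the annotated gene (chr10:44437177-44528501), before an internal start site.
Eomes: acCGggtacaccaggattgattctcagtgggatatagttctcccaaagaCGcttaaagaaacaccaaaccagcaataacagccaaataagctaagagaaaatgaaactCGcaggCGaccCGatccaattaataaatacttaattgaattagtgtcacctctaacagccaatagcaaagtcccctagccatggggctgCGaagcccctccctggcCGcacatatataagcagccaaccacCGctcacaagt
Tbx21: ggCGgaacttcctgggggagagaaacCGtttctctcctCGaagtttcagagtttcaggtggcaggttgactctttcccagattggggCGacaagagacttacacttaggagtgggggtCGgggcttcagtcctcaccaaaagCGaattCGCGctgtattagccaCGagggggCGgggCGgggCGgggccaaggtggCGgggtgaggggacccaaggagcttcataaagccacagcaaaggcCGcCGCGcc
Prdm1: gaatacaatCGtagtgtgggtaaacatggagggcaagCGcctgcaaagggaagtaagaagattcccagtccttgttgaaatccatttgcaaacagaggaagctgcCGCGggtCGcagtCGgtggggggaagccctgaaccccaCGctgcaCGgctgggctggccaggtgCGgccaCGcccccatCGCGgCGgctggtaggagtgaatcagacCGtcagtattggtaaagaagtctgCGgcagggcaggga
The *Eomes* window held 8 CpG, and 43% of the 32851 RefSeq windows of this length held at least as many. The *Tbx21* window held 16 CpG, a number that 25.4% of all windows reached, and the *Prdm1* window held 15, reached by 27.3%. The median over all windows was 6 CpG. *Eomes*, the gene with the largest fold change among the 7, thus had the fewest CpG of these 3 windows. The T-box site AGGTGTGA, searched on both strands, was in none of the 9 start site windows found for 5 of the 7 genes, and 1.12% of all windows held it. The shorter T-box core GGTGTG, part of that site, was in 3 of the 9 windows, all before starts of *Zeb2* and 2 of them overlapping, and in 16.3% of all windows. The motif CACCTG, which ZEB factors can bind, was found in the *Tbx21* window and in the *Prdm1* window, and in 17.2% of all windows. The motif CACGTG, an E-box that basic helix-loop-helix factors can bind, was found in 1 of these 9 windows, the one before the second start of *Hopx* (chr5:77095268-77095517), and in 6.02% of all windows. Methylation of these windows was not analysed here.

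The libraries held between 17607089 and 27267031 reads on genes. *Tet3* fell in DKO cells, from 1133, 1082 and 1440 reads in WT replicates 1 to 3 to 419 and 235 reads in DKO replicates 1 and 2, a log2 fold change of -1.50 (SE 0.18, adjusted p = 0.00121 by the edgeR quasi-likelihood test, Benjamini-Hochberg adjusted). *Tet2* was not lower, with a log2 fold change of 0.46 (adjusted p = 0.135 by the same test), and gene counts alone do not test this allele. The sex labels disagreed with the RNA of 2 libraries, and the study's methods call all of the mice male. WT replicate 1 is labelled female, but had 0 reads on *Xist* and 6821 on 4 Y-linked genes, whereas DKO replicate 1 is labelled male, but had 744 reads on *Xist* and 7 on the Y-linked genes. For the 7 genes, values without either library are given where they change a call or move a value by over 1.5 times. For lists of their targets, partners, related factors and receptors, it is stated where the number past the threshold changed. DKO replicate 1 also had 5.70% of reads on no annotated feature, against 3.51% to 3.72% elsewhere. T cell genes were abundant everywhere, and a list of 12 CD4 SP genes summed to between 17585 and 18877 CPM (reads scaled to a common library size) in WT and between 15590 and 18031 in DKO cells. Of these 12, *Cd4* (log2 fold change -0.67, adjusted p = 0.0095 by the edgeR quasi-likelihood test) and *Cd5* (-1.28, adjusted p = 8.57e-05) fell and none rose. Over all tested genes 1.5% fell and 2.42% rose. Of the 12, 6 did not overlap downward and 1 upward (19.5% and 19.6% of all tested genes).

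Of the 7 genes, *Eomes* and *Zfp683* rose in DKO cells beyond an adjusted p-value of 0.01, and none fell. Over all 13525 tested genes, 327 (2.42%) rose and 203 (1.5%) fell, or 3.92% in either direction. *Eomes* stood 40.4 times above its WT mean and *Zfp683* 4.11 times. *Tbx21* was above WT in both DKO libraries and *Bhlhe40* in 1 of them, and neither passed the threshold. *Hopx* and *Prdm1* gave fold changes below 0 that were not past it, and *Zeb2* was near the detection limit. The libraries of the 2 genotypes did not overlap for 3 of the 6 tested genes in the upward direction (19.6% of all tested genes) and for 1 in the downward direction (19.5%). The median log2 fold change was 1.96 over the 6 tested genes and 0.0076 over all tested genes. As the RNA is from bulk cells, more cells that express a gene and more of its RNA per cell cannot be told apart.

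**Figure D1:**
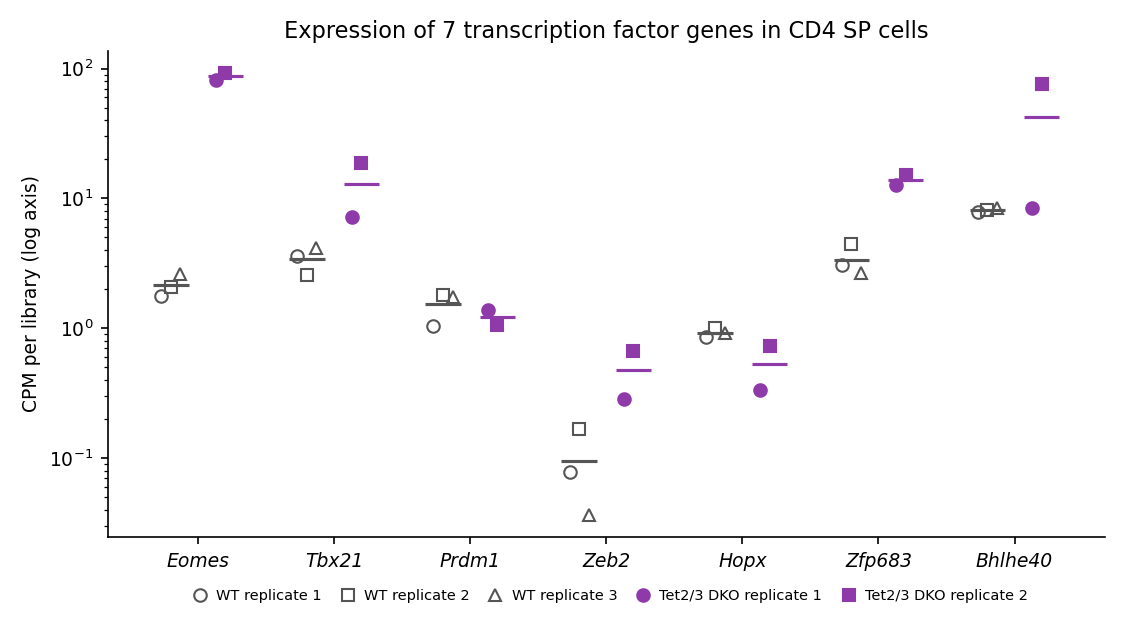
CPM of the 7 genes in each library on a log axis, with open grey symbols for the 3 WT and filled purple symbols for the 2 DKO libraries, 1 symbol shape per replicate number and a bar at each group's mean. Eomes rises from a mean of 2.16 to a mean of 87.0 CPM, with 81.2 and 92.8 CPM in the DKO libraries, whereas Bhlhe40 is high in only 1 of them.

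*Eomes* (ENSMUSG00000032446, GRCm38 chr9:118478212-118486132, plus strand) encodes the T-box factor known for memory CD8 T cells and innate-like T cells. It had 46, 49 and 72 reads in WT replicates 1 to 3, and 1704 and 1658 reads in DKO replicates 1 and 2. The level was 2.16 ± 0.430 CPM (SD, n = 3) in WT and 87.0 ± 8.15 CPM (SD, n = 2) in DKO cells. Both DKO libraries were far above all WT libraries, and the lower of them was 31.0 times the highest WT library. The log2 fold change was 5.32 (SE 0.16, adjusted p = 1.02e-06 by the edgeR quasi-likelihood test). It lay between 5.20 and 5.50 in all 17 fits that were run, with an adjusted p of at most 0.000277. Leaving out DKO replicate 1 gave 5.41 and leaving out WT replicate 1 gave 5.20, the libraries with discordant sex labels. Of its 4155 exonic bases, 2.84% are shared with the predicted gene *Gm33460*, and reads there were left out of the counts. Reads were not stranded, and reads of *Eomes* and of this neighbour within the overlap cannot be told apart.

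*Tbx21* (ENSMUSG00000001444, chr11:97098071-97115331, minus strand) encodes T-BET, the factor that sets the Th1 programme. Its counts were 93, 61 and 113 reads in WT and 150 and 334 reads in DKO cells. The level was 3.43 ± 0.787 CPM (SD, n = 3) in WT and 12.9 ± 8.16 CPM (SD, n = 2) in DKO cells. Both DKO libraries were above every WT library, the lower by 1.74 times the highest WT value, but they differed from each other by more than the WT libraries did. The log2 fold change was 1.87 (SE 0.40), and the adjusted p was 0.0190 by the edgeR quasi-likelihood test, short of 0.01. The call depended on the method and on the libraries. Over all genes each fit tested, the share past the threshold in either direction was 6.91% with DESeq2, 9.13% without DKO replicate 1, 8% without DKO replicate 2, and 1.14%, 0.822% and 0.956% without WT replicates 1, 2 and 3. DESeq2 placed *Tbx21* past the threshold (log2 fold change 1.91, adjusted p = 9.50e-05). With DKO replicate 1 left out, edgeR's fit gave 2.43 (adjusted p = 6.00e-07), and with replicate 2 left out it gave 1.03 (adjusted p = 0.0182). Over the other fits the adjusted p ranged up to 0.112, without WT replicate 2.

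Over the whole T-box family, little but these 2 genes and *Mga* was expressed. Of 18 family names, 17 had a row and 4 were tested, of which *Eomes* alone passed the threshold (3.92% of all tested genes did). The median log2 fold change of the 4 was 1.003. *Mga*, a large factor with a T-box and a MAX-binding domain, had 28.1 ± 1.36 CPM (SD, n = 3) in WT and 30.8 ± 6.02 CPM (SD, n = 2) in DKO cells (log2 fold change 0.13, SE 0.14). *Tbx6*, a factor of the embryonic mesoderm, had between 6 and 21 reads per library and a log2 fold change of -0.68 (SE 0.55, adjusted p = 0.524 by the edgeR quasi-likelihood test). *Tbx19* had 17, 2 and 7 reads in WT and 5 and 2 in DKO cells and was filtered out. The other 12 genes of the family had at most 5 reads in any library.

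*Zfp683* (ENSMUSG00000049410, chr4:134053838-134058996, plus strand) encodes HOBIT, known from resident memory T cells, NK cells and iNKT cells. It had 79, 105 and 73 reads in WT and 264 and 272 reads in DKO cells. The level rose from 3.38 ± 0.926 CPM (SD, n = 3) to 13.9 ± 1.86 CPM (SD, n = 2). The groups did not overlap, and the lower DKO library was 2.84 times the highest WT library. The log2 fold change was 2.05 (SE 0.24, adjusted p = 0.00108 by the edgeR quasi-likelihood test). It stayed between 1.89 and 2.28 in 17 fits and was past the threshold in 15 of them. The adjusted p missed 0.01 without WT replicate 1 (0.0125) and without WT replicate 3 (0.0139).

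*Prdm1* (ENSMUSG00000038151, chr10:44437177-44528501, minus strand), the gene of the HOBIT relative BLIMP-1, gave no detectable change. It had 27, 43 and 48 reads in WT and 29 and 19 reads in DKO cells, and the groups overlapped. The level was 1.54 ± 0.426 CPM (SD, n = 3) in WT and 1.22 ± 0.226 CPM (SD, n = 2) in DKO cells. The log2 fold change was -0.31 (SE 0.40, adjusted p = 0.720 by the edgeR quasi-likelihood test), and it ran from -0.53, without DKO replicate 1, to -0.09 over all fits, with -0.52 without WT replicate 1. At fewer than 50 reads per library a moderate change of *Prdm1* could go unseen.

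*Bhlhe40* (ENSMUSG00000030103, chr6:108660629-108666925, plus strand) was, of the 7 genes, the one on which the DKO libraries disagreed most. It had 202, 192 and 233 reads in WT, 178 reads in DKO replicate 1 and 1358 reads in replicate 2. In CPM, the WT level was 8.13 ± 0.340 (SD, n = 3), whereas the DKO libraries held 8.49 and 76.0. Replicate 1 was thus 1.04 times the WT mean and replicate 2 was 9.34 times. The log2 fold change over all libraries was 2.35 (SE 0.67, adjusted p = 0.0634 by the edgeR quasi-likelihood test), not past the threshold. Without replicate 2 it was 0.05 (SE 0.21, adjusted p = 0.917), and without replicate 1 it was 3.22 (SE 0.14, adjusted p = 2.58e-11). That 1 library decides the value, and a mean of both describes neither.

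*Hopx* (ENSMUSG00000059325, chr5:77086988-77115121, minus strand) had 22, 24 and 25 reads in WT and 7 and 13 reads in DKO cells. Both DKO libraries were below every WT library. The level was 0.924 ± 0.0810 CPM (SD, n = 3) in WT and 0.531 ± 0.278 CPM (SD, n = 2) in DKO cells. The log2 fold change was -0.83 (SE 0.48, adjusted p = 0.354 by the edgeR quasi-likelihood test) and was not past the threshold. It was -0.34 (SE 0.61) without DKO replicate 1 and -1.47 (SE 0.71) without DKO replicate 2. These counts hold a small part of the reads on this gene. The antisense gene *Hopxos* covers 412 of its 1516 exonic bases (27.2%), and a read that falls on both genes is left out when strand is ignored. The deposited counts by strand keep such reads, and summed over both strands they gave 114, 92 and 128 reads in WT and 49 and 63 reads in DKO cells. Over the 5 libraries, 91 of 446 such reads (20.4%) were in the counts without strand. With the summed counts the groups again did not overlap, and the log2 fold change was -0.58 (SE 0.27, adjusted p = 0.248 by the same test). Reads of *Hopx* and *Hopxos* cannot be told apart in these libraries, which do not keep strand. For *Eomes*, *Bhlhe40* and *Zeb2* the counts without strand held 91.2%, 90.4% and 92.6% of the summed reads.

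**Figure D2:**
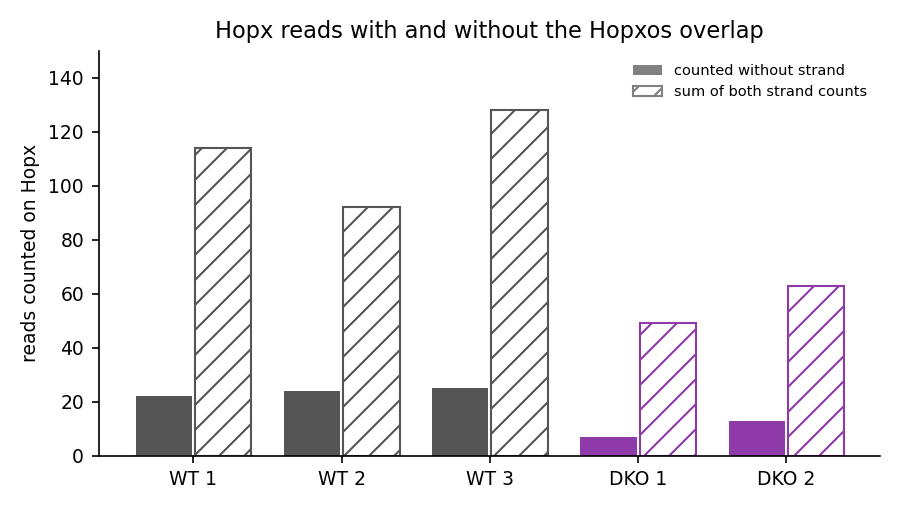
Reads on Hopx in each library (bars from 0), counted without strand (filled) and as the sum of the counts on either strand (hatched), in grey for WT and purple for DKO. Most reads are in the sum only, and with either count both DKO libraries are below all WT libraries.

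*Zeb2* (ENSMUSG00000026872, chr2:44983632-45117395, minus strand) had 2, 4 and 1 reads in WT and 6 and 12 reads in DKO cells, and was removed by the filter on low counts. Its libraries did not overlap. Pooled by genotype, 7 reads in WT and 18 in DKO cells gave a ratio of 5.10 in DKO over WT after scaling (95% exact interval 2.03 to 14.4, which covers counting error only). With no filter on low counts, the edgeR quasi-likelihood test gave an adjusted p of 0.157. *Zeb1*, named as its paralog, had 1542, 1394 and 1694 reads in WT and 1777 and 1061 in DKO cells, and its groups overlapped on the CPM scale. *Bhlhe41*, the paralog of *Bhlhe40*, had at most 3 reads in any library.

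**Figure D3:**
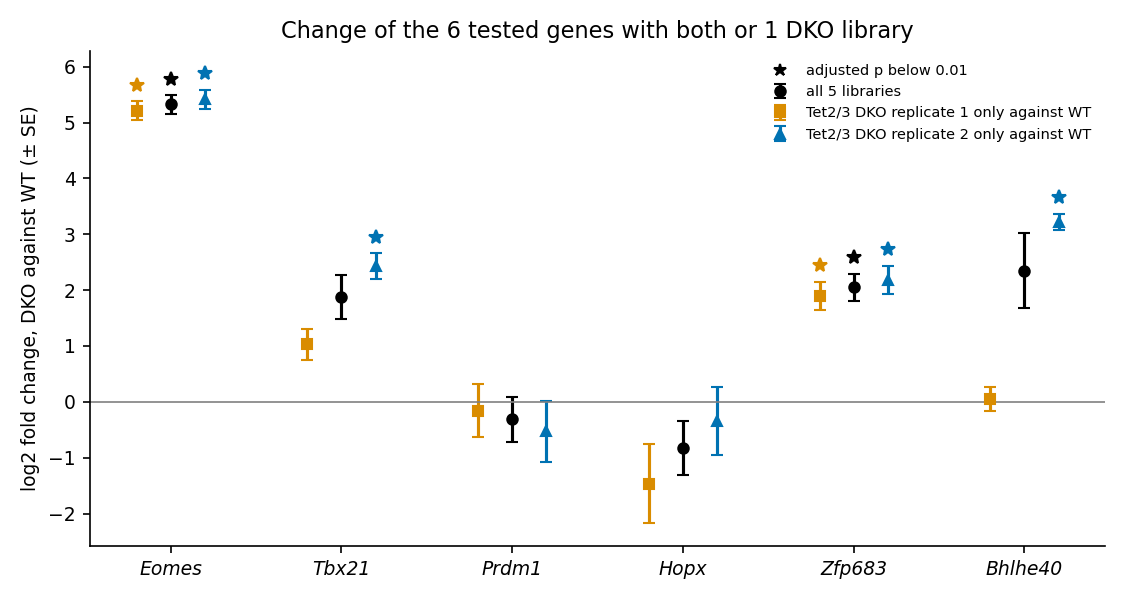
Log2 fold change of DKO against WT with its SE for the 6 tested genes, from all 5 libraries (black circles) and with DKO replicate 2 (orange squares) or replicate 1 (blue triangles) left out, where stars mark an adjusted p below 0.01. Eomes and Zfp683 keep their values with either library, whereas Bhlhe40 goes from 0.05 to 3.22.

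The 2 DKO libraries differed by a median of 0.247 on the log2 CPM scale over all tested genes. For WT, the largest difference among the pairs of libraries had a median of 0.266. The largest of several pairs is by nature above a single pair, so these 2 medians do not show equal agreement. *Eomes* differed by 0.19 between them, and 59.1% of tested genes differed by at least as much. *Zfp683* differed by 0.27 (46.8% of tested genes) and *Prdm1* by -0.35 (37.2%), where a positive value means more in replicate 2. *Eomes* and *Zfp683* thus agreed about as well as the median gene. For *Prdm1*, with 29 and 19 reads, the 95% interval of the ratio ran from 0.407 to 1.42, which leaves its agreement undetermined. *Tbx21* differed by 1.38, a value reached by 5.55% of tested genes, and replicate 2 was 2.61 times replicate 1 (95% exact interval 2.15 to 3.19 from counting error). *Bhlhe40* differed by 3.15, which 0.569% of tested genes reached, and replicate 2 was 8.95 times replicate 1 (7.65 to 10.5). In WT the largest difference of *Bhlhe40* was 0.12. *Hopx* differed by 0.95, but with so few reads that the interval of the ratio ran from 0.808 to 6.45. With 1 library against another, none of these differences was tested over mice. Replicate 1 had 744 reads on *Xist* and 7 on the 4 Y-linked genes, and replicate 2 had 0 and 5101. The 2 libraries thus differed in apparent sex as well, and its part in these differences was not tested.

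**Figure D4:**
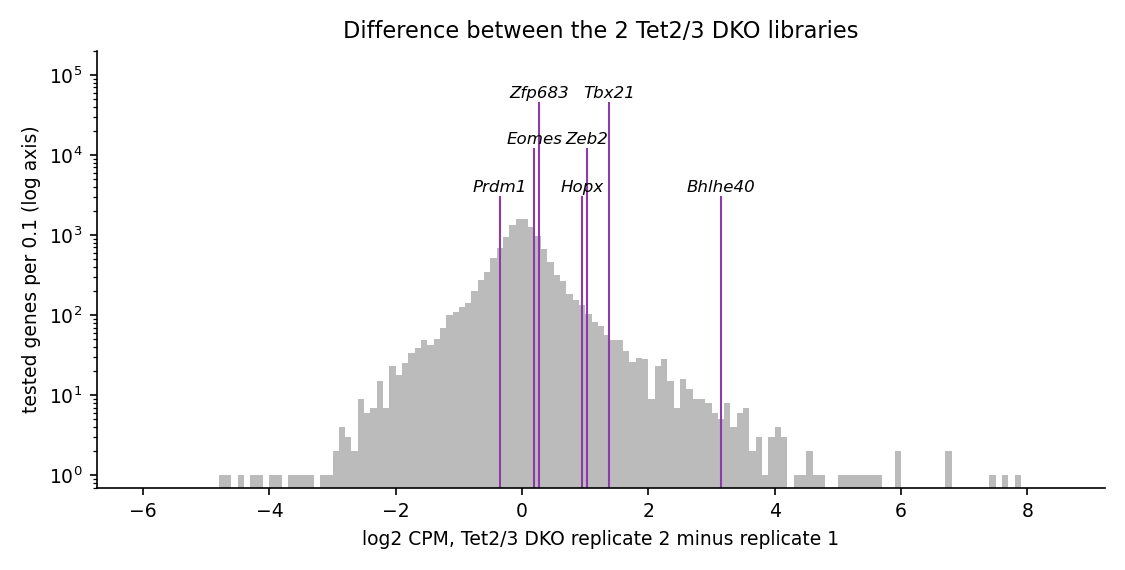
Histogram of the difference in log2 CPM between DKO replicates 2 and 1 over 13525 tested genes (log axis for the number of genes), with purple lines at the 7 genes. Eomes and Zfp683 lie in the middle of the distribution, Tbx21 at 1.38 in its shoulder and Bhlhe40 at 3.15 in its tail.

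Levels can be set against each other only per length, as CPM per kilobase of exon. In WT the order was *Zfp683* (2.30), *Bhlhe40* (1.73), *Tbx21* (1.38), *Hopx* (0.610), *Eomes* (0.519), *Prdm1* (0.275) and *Zeb2* (0.00472). Of these neighbours only *Hopx* and *Eomes* overlapped between libraries, but the libraries of *Zfp683* and *Bhlhe40*, and those of *Bhlhe40* and *Tbx21*, nearly touched. In DKO cells *Eomes* moved from the fifth place to the first, with 20.9 CPM per kilobase. It was followed by *Zfp683* (9.45), *Bhlhe40* (8.98), *Tbx21* (5.19), *Hopx* (0.350), *Prdm1* (0.219) and *Zeb2* (0.0240). *Zfp683* and *Bhlhe40*, *Bhlhe40* and *Tbx21*, and *Hopx* and *Prdm1* were not separated beyond the spread of the 2 libraries. The place of *Hopx* rests on the counts without its overlap. With both strands summed it had 2.85 CPM per kilobase in WT, the highest mean of the 7 genes in WT, and 1.93 in DKO cells. In WT replicate 2, however, *Zfp683* was above *Hopx*, and the summed reads can include reads of *Hopxos*.

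Of 20 genes known as targets of T-BET or EOMES 19 were tested, 9 rose and none fell, beside 2.42% and 1.5% of all tested genes. The libraries did not overlap for 13 upward and for 0 downward, beside 19.6% and 19.5% of all tested genes. Their median log2 fold change was 2.23, beside 0.0076 over all tested genes. *Cxcr3*, the chemokine receptor of Th1 cells, rose from 23.0 ± 7.10 CPM (SD, n = 3) to 286 ± 54.1 CPM (SD, n = 2), a log2 fold change of 3.63 (SE 0.21, adjusted p = 2.26e-05 by the edgeR quasi-likelihood test). *Nkg7*, a cytotoxic granule protein, rose by 3.74, *Prf1* (perforin) by 1.67 and *Klrd1* (the NK receptor chain CD94) by 2.59. The granzyme *Gzma* had 72, 33 and 52 reads in WT and 402 and 1042 in DKO cells, a log2 fold change of 4.23 (SE 0.49). *Il18rap*, a chain of the IL-18 receptor, rose by 2.43 and the chemokine *Xcl1* by 2.23. *Ncr1* (NKp46) went from 1, 0 and 0 reads to 31 and 40, and the chemokine *Ccl3* from 1, 1 and 2 reads to 12 and 717. Both passed the threshold, and no fold change is given for either because WT held almost no reads. A list of 8 NK cell genes, which shares *Ncr1*, was also higher, with summed levels between 6.09 and 9.63 CPM in WT and between 22.8 and 47.0 CPM in DKO cells, and its part in these changes was not tested.

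The remaining targets did not pass it. *Ccl4* had 18, 10 and 28 reads in WT and 104 and 993 in DKO cells (adjusted p = 0.0120 by the edgeR quasi-likelihood test). *Ccl5* had a log2 fold change of 1.65 (adjusted p = 0.0174) and *Cx3cr1*, a receptor of circulating effector cells, of 1.58 (adjusted p = 0.0555). *Gzmb* split the DKO mice, with 109, 62 and 71 reads in WT, 21 in DKO replicate 1 and 843 in replicate 2. *Ifng*, the cytokine gene most often used to read out T-BET and chosen here after its values were seen, had 18, 6 and 27 reads in WT and 11 and 55 in DKO cells, and its groups overlapped. The number of targets past the threshold changed with the libraries. It was higher with DKO replicate 1 or 2 left out, as was the number over all tested genes. It was 5 without WT replicate 1, where *Ncr1*, *Xcl1*, *Il18rap* and *Ccl3* no longer passed. Without WT replicate 2, and without WT replicate 3, the 3 that passed were *Cxcr3*, *Nkg7* and *Prf1*. Without DKO replicate 2 *Ccl3* did not pass.

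DKO replicate 2 was higher than replicate 1 by at least 1 on the log2 scale for 7 of the 19 tested targets, and replicate 1 for none. Over all tested genes these shares were 5.52% and 4.64%. Among the targets that passed the threshold, *Cxcr3*, *Prf1*, *Klrd1*, *Nkg7*, *Xcl1* and *Ncr1* were within that limit in both libraries, like *Eomes* and *Zfp683*. *Gzma*, *Il18rap* and *Ccl3* were beyond it, like *Bhlhe40* and *Tbx21*.

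BLIMP-1 and HOBIT are known to repress genes of lymph node homing and tissue exit. Of 15 genes known as their targets 13 were tested, and 2 rose and 3 fell, beside 2.42% and 1.5% of all tested genes. The libraries did not overlap for 5 upward and for 4 downward, beside 19.6% and 19.5% of all tested genes. The median log2 fold change of the list was 0.51. The exit receptor gene *S1pr1* fell from 787 ± 69.8 CPM (SD, n = 3) to 504 ± 28.3 CPM (SD, n = 2), a log2 fold change of -0.64 (SE 0.10, adjusted p = 0.00394 by the edgeR quasi-likelihood test). *Ccr7*, the lymph node homing receptor, fell by 0.65 on the log2 scale and *Tcf7*, which encodes the naive cell factor TCF1, fell by 0.56. *Klf2*, the factor upstream of *S1pr1*, had a log2 fold change of -0.64 (adjusted p = 0.0127), not past the threshold. The residency genes *Itgae* (CD103) and *Cxcr6* rose, by 2.63 and 2.11. *Cd69*, whose protein holds back S1PR1, had 6006, 5431 and 6566 reads in WT and 15191 and 6217 in DKO cells (log2 fold change 1.20, adjusted p = 0.0131). *Cxcr5* had 71, 112 and 120 reads in WT, 107 in DKO replicate 1 and 454 in replicate 2 (adjusted p = 0.0724), so that replicate 2 sets its mean. *Bcl6* had a log2 fold change of 0.79 (adjusted p = 0.132). Without any one WT library the 2 that rose, *Itgae* and *Cxcr6*, were past the threshold, and none of the 3 that fell was. With DKO replicate 1 or 2 left out more of these genes passed, as did more of all tested genes.

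Of 12 factors of naive and memory cells, all were tested, and 1 rose and 2 fell, beside 2.42% and 1.5% of all tested genes. The median log2 fold change was -0.47. The libraries did not overlap for 8 downward (19.5% of all tested genes) and for 2 upward, *Myb* and *Bcl6* (19.6%). *Lef1* fell from 659 ± 12.3 CPM (SD, n = 3) to 434 ± 62.5 CPM (SD, n = 2) (log2 fold change -0.60, adjusted p = 0.00611 by the edgeR quasi-likelihood test), beside *Tcf7*. *Myb*, a factor of thymic precursors and memory cells, rose by 1.51 (adjusted p = 0.00204), with 105, 93 and 91 reads in WT and 219 and 197 in DKO cells. *Id3* (log2 fold change -0.67, adjusted p = 0.0318) and *Satb1* (-0.54, adjusted p = 0.0164) did not pass. Without any one WT library no gene of this list passed. More genes of the list passed with DKO replicate 1 or 2 left out, as over all tested genes.

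Among 10 paralogs and partners of the 7 factors, 9 were tested, and 2 rose and none fell, beside 2.42% and 1.5% of all tested genes. The libraries did not overlap for 4 upward and for 1 downward, beside 19.6% and 19.5% of all tested genes. The median log2 fold change of the list was 0.44. *Stat4*, which carries the IL-12 signal that acts upstream of T-BET, rose from 27.8 ± 0.736 CPM (SD, n = 3) to 99.3 ± 14.6 CPM (SD, n = 2), a log2 fold change of 1.84 (SE 0.12, adjusted p = 3.09e-05 by the edgeR quasi-likelihood test). *Batf*, an AP-1 family factor of effector T cells, rose by 0.79 (adjusted p = 0.00173), and this call was lost without any one WT library. *Runx2* had 12, 15 and 17 reads in WT and 25 and 49 in DKO cells (adjusted p = 0.0583). *Runx1* (log2 fold change -0.51), *Irf4* (0.45) and *Id2* (0.44) did not pass. Leaving out DKO replicate 1 or 2 raised the number of this list past the threshold, as it did over all tested genes.

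Of 15 cytokine receptor genes that act upstream of these factors, 2 rose and none fell, beside 2.42% and 1.5% of all tested genes. The libraries did not overlap for 7 upward and for 2 downward, beside 19.6% and 19.5% of all tested genes. The median log2 fold change of the list was 0.28. *Ifngr1*, the ligand-binding chain of the interferon gamma receptor, rose by 0.90 (SE 0.09, adjusted p = 0.000363 by the edgeR quasi-likelihood test). *Tgfbr1*, a chain of the TGF-beta receptor, rose by 0.99 (adjusted p = 0.00614), but not without any one WT library. *Il12rb2*, the chain that T-BET is known to raise, had 36, 27 and 54 reads in WT and 100 and 76 in DKO cells (log2 fold change 1.57, adjusted p = 0.0126). *Il12rb1* (1.08), *Il15ra* (0.54) and *Il18r1* (0.54) did not pass. The number past the threshold was higher with DKO replicate 1 or 2 left out, as it was over all tested genes.

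Among 17 other lineage and effector factors 2 rose and 1 fell, beside 2.42% and 1.5% of all tested genes. The libraries did not overlap for 7 upward and for 4 downward, beside 19.6% and 19.5% of all tested genes. The median log2 fold change of the list was 0.28. *Zbtb16*, which encodes the innate-like T cell factor PLZF, had 32, 13 and 24 reads in WT and 251 and 253 in DKO cells, a log2 fold change of 3.85 (SE 0.29, adjusted p = 8.57e-05 by the edgeR quasi-likelihood test). *Maf* rose by 3.09 (adjusted p = 0.00652), with 189 and 596 reads in the DKO libraries. *Zbtb7b*, which encodes the CD4 lineage factor Th-POK, fell from 43.8 ± 7.19 CPM (SD, n = 3) to 19.4 ± 0.408 CPM (SD, n = 2) (log2 fold change -1.17, adjusted p = 0.00225). *Zbtb32* went from 57, 35 and 49 reads in WT to 69 and 613 (adjusted p = 0.0372), *Tox2* from 15, 11 and 10 to 44 and 133 (adjusted p = 0.0129), and *Nfil3* from 40, 40 and 62 to 38 and 164 (adjusted p = 0.155). Like *Bhlhe40*, *Zbtb32* and *Nfil3* held most of their DKO reads in replicate 2, and in replicate 1 *Nfil3* overlapped WT. *Nr4a2* had a log2 fold change of 1.29 (adjusted p = 0.0447). *Zbtb16* passed without any one library. *Maf* did not pass without any one WT library, nor did *Zbtb7b* without WT replicate 2 or without WT replicate 3. More of these factors passed with DKO replicate 1 or 2 left out, as did more of all tested genes.

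**Figure D5:**
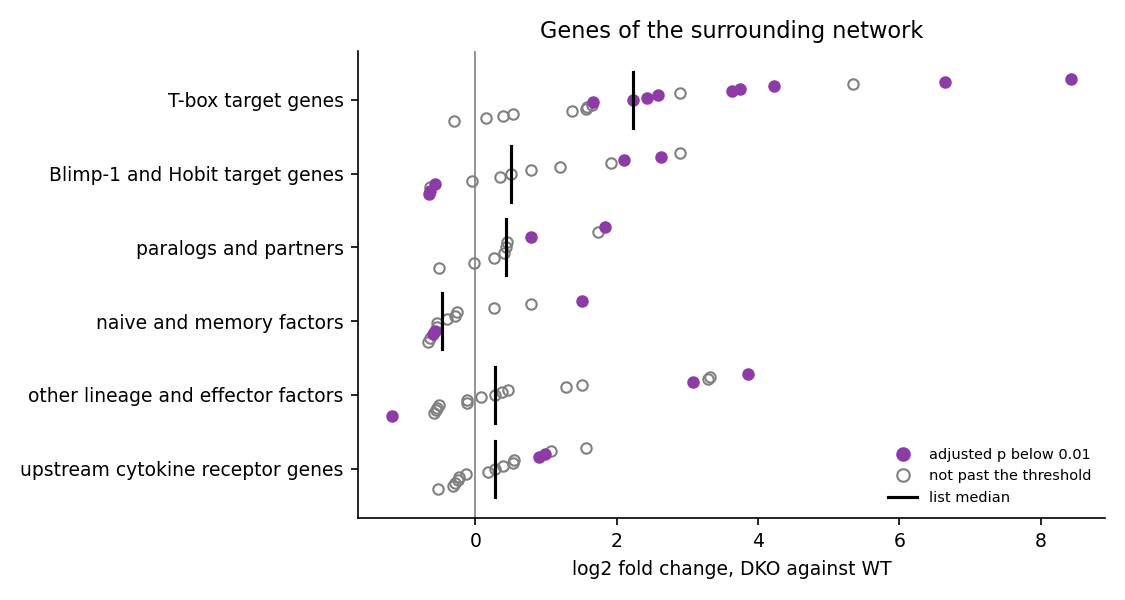
Log2 fold change of DKO against WT for the tested genes of 6 lists, 1 point per gene, filled purple where the adjusted p is below 0.01, with a black bar at each list's median. Targets of the T-box factors lie mostly above 0 with a median of 2.23, and naive and memory factors mostly below it with a median of -0.47. The 2 points farthest right, Ccl3 and Ncr1, had almost no WT reads, and their values depend on how low counts are treated.

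Markers of other cell types were also compared, and differed from list to list. Over all tested genes, 2.42% rose and 1.5% fell past the threshold. Of the 8 NK cell genes, 5 were tested and 3 rose, *Ncr1*, *Klrb1c* and *Klrb1f*. All 5 tested, *Klre1* and *Fcgr3* among them, were above WT in both DKO libraries (19.6% of all tested genes were). Of the 3 that were filtered out, *Klra4* and *Klra8* had at most 4 reads in any library, and *Klri2* had 0, 2 and 0 reads in WT and 1 and 48 in DKO cells. A list of NKT and gamma delta T cell genes, 4 of 7 with a row, summed to between 13.7 and 18.8 CPM in WT and between 36.0 and 46.2 CPM in DKO cells. *Zbtb16* and *Blk* rose, *Trdc*, the constant gene of the delta chain, had between 273 and 457 reads in every library, and *Sox13*, a factor of gamma delta T cells, had 28, 25 and 26 reads in WT and 5 and 4 in DKO cells (log2 fold change -2.12, adjusted p = 0.0361 by the edgeR quasi-likelihood test). Of the CD8 genes *Cd8b1* fell, with a log2 fold change of -1.29, while *Cd8a* had a log2 fold change of 0.94 that did not pass the threshold, with both libraries of DKO cells above WT. Their sum, mostly *Cd8b1*, went from between 68.8 and 77.1 to between 34.3 and 35.8 CPM. Regulatory T cell genes went from between 750 and 941 to between 372 and 606 CPM, a sum that is mostly *Tnfrsf4* and *Tnfrsf18*. Of the 6 genes *Foxp3* alone passed the threshold and fell by 1.31, and *Ctla4*, *Ikzf2* and *Il2ra* each had 1 DKO library above all WT libraries and 1 below them. Of 6 plasma cell genes 3 were tested and 2, *Ighm* and *Sdc1*, rose. *Jchain* had 12, 6 and 8 reads in WT and 0 and 7 in DKO cells, *Tnfrsf17* had at most 1 read, and *Mzb1* had 0 reads throughout. Their sum, mostly *Ighm* and *Xbp1*, went from between 727 and 818 to between 1264 and 1575 CPM. Of 10 tested myeloid genes none passed the threshold, 7 did not overlap upward (19.6% of all tested genes) and 1, *Flt3*, did not overlap downward (19.5%), with sums from 115 to 128 CPM in WT and from 156 to 234 CPM in DKO cells. No gene passed the threshold in lists of B cell, CD4 CD8 double positive thymocyte, thymic epithelium and erythroid genes. B cell genes summed to 5.72 to 7.03 CPM in WT and 9.11 to 9.40 in DKO cells. Double positive thymocyte genes summed to 159 to 182 and 116 to 156 CPM. Thymic epithelium sums overlapped (10.6 to 13.4 and 10.7 to 34.1 CPM), and erythroid sums were at most 0.336 CPM. The sort required TCRb and CD4 and removed CD8+ and CD1d tetramer-binding cells. The part of other cells in the changes of the 7 factors was not tested.

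The genes whose profile over the 5 libraries was most like that of *Eomes*, by the root mean square difference of log2 CPM centred on WT, were *Egfr* (0.38), *Ifngas1* (0.56) and *Lrrc17* (0.57). *Egfr* had 1, 0 and 0 reads in WT and 78 and 56 in DKO cells. *Ifngas1*, a long noncoding RNA next to *Ifng*, had 30, 12 and 35 reads in WT and 1115 and 1173 in DKO cells, close in size to *Eomes* itself. *Lrrc17* had 0, 0 and 1 reads in WT and 32 and 49 in DKO cells. With almost no WT reads, the nearness of *Egfr* and *Lrrc17* to *Eomes* depends on how low counts are treated. For *Zfp683* the nearest genes were *Soat2* (0.19), *Ly6g5b* (0.20) and *Il4* (0.20). *Il4*, the Th2 and NKT2 cytokine, had 18, 16 and 13 reads in WT and 58 and 61 in DKO cells (adjusted p = 0.00404 by the edgeR quasi-likelihood test).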

How the data were processed

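RNA of sorted CD4 SP cells was copied with SMART-seq v4, and libraries were made with Nextera XT. Per the labels and the study's methods, the authors trimmed reads with fastp 0.21.0, aligned them to mm10 with STAR 2.7.5a and the GRCm38.100 annotation, and deposited raw gene counts for each library, without normalization or pooling. Counts without strand were used, in which reads on overlapping genes or at several places are left out. Depth was 17607089 to 27267031 reads on genes. Without molecular identifiers, intervals cover counting error only.

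Symbols, coordinates and exon lengths came from GENCODE M21 (GRCm38), and upstream sequences from RefSeq (GRCm38.p6). *Zfp683* and *Bhlhe40* were not looked up beyond that table. Counts were tested with edgeR 4.0.16 in R 4.3.3 (TMM scaling, filterByExpr by genotype, newer quasi-likelihood moderation, Benjamini-Hochberg adjustment over 13525 genes, threshold 0.01). The SE was derived from the F statistic as |log2 fold change| over its square root. Per-library log2 CPM used a prior count of 2. The script was tested on simulated data. The study used DESeq2, and version 1.42.0 was run here as an alternative, beside other scalings, filters, moderations, strand columns, a threshold of 0.05, a replicate block and leaving out each library. Nothing in the labels says that samples of 1 number share a litter or day, and the mice are different animals.

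The 7 genes, the lists and the tests were chosen with earlier results of these data known. Genes named from the lists are those past the threshold and up to 4 others per list with the largest change, beside genes named for a stated reason. For each of the 7 genes past the threshold, the 3 genes with the nearest profile are named. T cell receptor clonotype files were not used, and 1 gene is not reported here.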

Additional observations from a re-analysis of the deposited data

How the results depend on the processing

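The directions of all 6 tested genes held in every alternative fit that gave a value (*Hopx* gave none under a filter of 1 CPM in 2 libraries). *Eomes* was past the threshold in each, and *Hopx* and *Prdm1* in none. The number of genes past the threshold was 530 in the reported fit, 1027 with DESeq2, 1173 at a threshold of 0.05 and between 110 and 1311 with 1 library left out (1311 without *Tet2/3* DKO replicate 1, 1148 without replicate 2, and 152, 110 and 127 without WT replicates 1, 2 and 3). In fits with 1 *Tet2/3* DKO library, that library is assumed to vary like the WT libraries. Of the 7 genes, 2 passed in the reported fit and between 1 and 4 with 1 library left out. Over the lists, counting each gene once and leaving out the 7 genes themselves, 23 genes passed, 35 with DESeq2, 35 at 0.05 and between 8 and 47 with 1 library left out. The difference between the *Tet2/3* DKO libraries was 0.95 for *Hopx* and 1.08 with a prior count of 0.5. Samples with the same replicate number did not deviate together (correlations of deviations of 0.015 and 0.0045), so the numbers were not read as pairs. With the replicate number as a block, 358 genes passed, and the log2 fold changes were 5.50 for *Eomes*, 1.90 for *Zfp683* (adjusted p = 0.00575 by edgeR's quasi-likelihood test) and 1.94 for *Tbx21* (adjusted p = 0.0371). In that fit the fold changes do not draw on WT replicate 3, as no *Tet2/3* DKO library has its number. The block took the naive and memory factors past the threshold from 3 to 0 (*Tcf7*, *Lef1* and *Myb* did not pass), the cytokine receptors from 2 to 1, the BLIMP-1 and HOBIT targets from 5 to 4 and the other lineage factors from 3 to 4, and left the T-box targets at 9. The cause of these shifts was not tested. Read depth limits *Zeb2*, *Hopx* and *Prdm1*, whose counts without strand stayed under 50 reads in each library.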

Other observations

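Among the tested genes of the lists of transcription factors, targets and receptors, 2 were higher in *Tet2/3* DKO replicate 1 than in replicate 2 by at least 1 on the log2 scale. They were picked after their values were seen. *Cd69* had 15191 and 6217 reads in replicates 1 and 2. *Ikzf2*, which encodes the factor Helios, had 906 and 327 reads, beside 527, 572 and 751 in WT. *Il10*, a gene that BLIMP-1 and BHLHE40 are known to control, was filtered out with 2, 1 and 3 reads in WT and 0 in replicate 1, but had 86 in replicate 2, the library with high *Bhlhe40*.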
